A study of Mus musculus with 16 samples.

Results

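The genes described here are 33 sterol and fatty acid synthesis genes, most of them known targets or partners of the SREBP transcription factors. They were chosen by name, from a list of lipid synthesis genes, together with a requirement of 10 or more read pairs in at least 4 of 16 libraries. All 33 met it, out of 47593 genes in the count table, of which 16723 met the same requirement. Cortical RNA of 5xFAD mice was sequenced in 4 groups of 4 libraries: female vehicle (FC), female rapamycin (FR), male vehicle (MC) and male rapamycin (MR). Every mouse, controls included, was heterozygous for the 5xFAD transgenes on a C57BL/6-SJL hybrid background, and was examined at 5 months of age. These transgenes encode mutant human proteins of the amyloid pathway and are driven by the neuronal Thy-1 promoter, so the model carries amyloid from neuronal overexpression, and mice without the transgenes were not analysed here. Rapamycin mice ate a diet with the drug from 2 to 5 months of age, and vehicle mice ate the control diet. The question was how the drug diet altered the cortical transcriptome of each sex.

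Cholesterol is made from acetyl-CoA through mevalonate, squalene and lanosterol, and fatty acids are made from the same acetyl-CoA through malonyl-CoA. When membrane sterol is low, the escort protein Scap carries the SREBP factors to the Golgi, where they are cut and released to activate the genes of these pathways, while the Insig proteins hold them back in the endoplasmic reticulum. In the brain, cholesterol is made locally, with astrocytes and myelin-forming oligodendrocytes as large producers. Rapamycin inhibits mTOR complex 1, a kinase known in other settings to promote SREBP activity.

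The promoters are shown because SREBPs bind the sterol regulatory element and act there with factors that bind CCAAT. RefSeq promoters (GRCm38.p6) were matched for 26 of the 33 genes. Those of Fads1, Fdft1, Fdps, Scd1, Scd2, Sqle and Stard4 were not matched. In the 250 bases upstream of a start, searched on both strands, the letters TCACNCCAC were found in 1 of the 26 genes, Hmgcs1, against 1.225% of all 27025 genes in the table. CCAAT was found in 20 of the 26 (76.92%, against 37.49% of all genes), and CACGTG, the E-box letters, in 6 (23.08%, against 6.86%). The windows below are read along the strand of each gene, with the matched letters in capitals. Hmgcs1 (chr13:119690189-119690247, plus strand) is shown for its TCACNCCAC match, which starts 137 bases upstream. Fasn (chr11:120824587-120824652, minus strand) and Tm7sf2 (chr19:6067878-6067912, minus strand) are shown as called genes with CCAAT or, on the other strand, ATTGG.
Hmgcs1: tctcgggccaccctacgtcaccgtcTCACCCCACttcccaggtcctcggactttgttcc
Fasn: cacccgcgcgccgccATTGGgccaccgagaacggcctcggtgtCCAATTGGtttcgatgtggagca
Tm7sf2: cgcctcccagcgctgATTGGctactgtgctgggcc
The Fasn window holds 3 matches, of which a CCAAT and an ATTGG overlap, and the Tm7sf2 window holds 1. The Tm7sf2 window lies upstream of a RefSeq start but inside the span of the gene as counted (chr19:6062821-6068373). The promoters of Acly and Acaca, the other called genes with a matched promoter, held no match to the 3 motifs. Only these exact letters were searched, so a promoter without a match may still hold a site.

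The libraries held from 16393501 to 20593089 read pairs, and the labels place 11 of them in batch 1 and 5 in batch 2 (FC4, FR4, FR5, MC4 and the library labelled MR4). The library labelled MR4 had 9935 read pairs on Xist and 0 on 4 Y-linked genes, which goes against its label, and it was kept in its labelled group. Neuronal markers, summed over 6 genes, ranged from 4936 to 8051 CPM (read pairs scaled to library size). Oligodendrocyte markers (8 genes) ranged from 3808 to 6163 CPM in vehicle libraries and from 3776 to 9828 CPM in rapamycin libraries, the highest being FR2. Astrocyte markers (6 genes) ranged from 3929 to 5960 and from 3983 to 6669 CPM, and microglial markers (5 genes) from 341 to 553 and from 225 to 459 CPM. Choroid plexus markers (5 genes) ranged from 12.4 to 1923 CPM in vehicle libraries (median 144), the highest being MC4, and from 23.95 to 187 CPM in rapamycin libraries, at a median log2 fold change of -1.73. Among these lists, 1 of 6 astrocyte genes (Aldoc) and 1 of 4 endothelial genes (Ly6c1) rose, and 0 of the oligodendrocyte, precursor, microglial, neuronal, choroid plexus, meningeal and blood genes were called, at an adjusted p under 0.05. No listed marker was at 0 in all libraries. The part of cell composition in the results was not tested, and fewer cells of a type and less RNA per cell cannot be told apart in such tissue.

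The 3 fatty acid synthesis enzymes fell with rapamycin, and 17 of the 18 mevalonate and sterol enzymes did not pass the test. The 1 that passed makes 5.56% of the 18, against 13.4% of all genes tested. These counts do not test a difference between the pathways, whose genes also differ in exon length. With offsets for exon length, described further on, Acly kept its call, and Acaca and Fasn lost theirs (adjusted p = 0.188 and 0.199). In the fit of both sexes (edgeR, with terms for sex, batch and diet), 5 of the 33 genes were called at an adjusted p under 0.05. Acly, Acaca, Fasn and Stard4 fell and Tm7sf2 rose. This is 15.2% of the genes, near the 13.4% of all 16553 genes tested. The 4 that fell compare with 6.86% of all genes that fell, and the 1 that rose with 6.55% that rose. With a fold change of at least 1.5 required as well, 0 of the 33 remained, against 2.14% of all genes. The median log2 fold change of the 33 genes was -0.06, beside 0.02 over all genes, and 20 of the 33 were below 0, beside 47.7% of all genes.

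**Figure D1:**
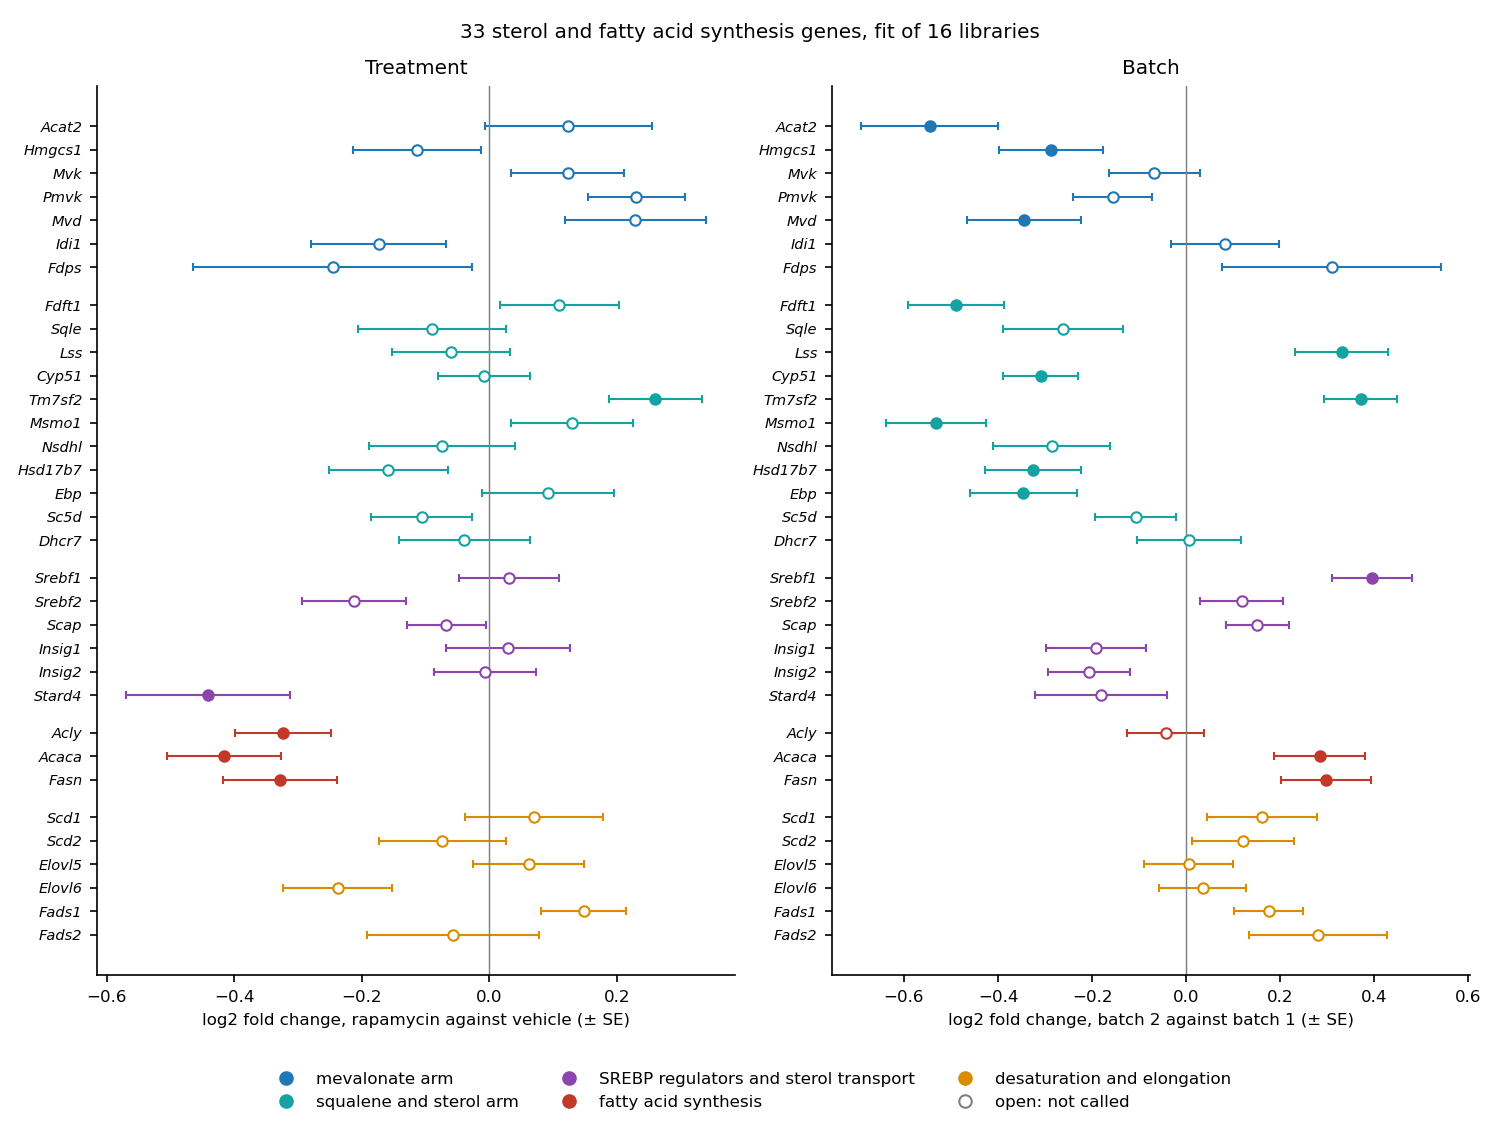
Log2 fold change with its standard error (x axis) for each of the 33 genes (y axis, grouped by role), for rapamycin against vehicle on the left and batch 2 against batch 1 on the right, from the fit of 16 libraries. Filled points passed an adjusted p of 0.05: 5 genes for treatment, among them all 3 fatty acid synthesis enzymes, and 13 genes for batch, of which 8 sterol pathway enzymes lie to the left of 0.

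The 3 enzymes that make palmitate from citrate all fell, and all lie on mouse chromosome 11. Acly, ATP citrate lyase, which makes the cytosolic acetyl-CoA used by both pathways, lies at chr11:100476353-100528000. Its level was 222, 212, 238 and 198 CPM in FC1 to FC4 and 199, 217, 198 and 211 CPM in MC1 to MC4. It was 183, 159, 165 and 162 CPM in FR1, FR2, FR4 and FR5, and 186, 134, 185 and 175 CPM in MR1 to MR4. Every rapamycin library was below every vehicle library, in either sex and in either batch. Acly was the 1 of the 33 genes (3.03%) with no overlap between the diets, against 0.489% of all genes tested. Its log2 fold change was -0.32 (SE 0.08, adjusted p = 0.0158), a fall of 20.1%.

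Acaca, acetyl-CoA carboxylase alpha, makes malonyl-CoA, the committed step of fatty acid synthesis, and lies at chr11:84129672-84401651. It was at 107, 99.5, 118 and 124 CPM in FC1 to FC4 and at 109, 101, 101 and 125 CPM in MC1 to MC4. In the rapamycin groups it was at 76.2, 71.1, 106 and 92.3 CPM in FR1, FR2, FR4 and FR5, and at 96.6, 57.5, 88.2 and 93.8 CPM in MR1 to MR4. Only FR4 reached into the vehicle range, and MR2 was the lowest library. The log2 fold change was -0.42 (SE 0.09, adjusted p = 0.0132), the smallest adjusted p among the 33 genes.

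Fasn, fatty acid synthase, joins malonyl units into palmitate, and lies at chr11:120805846-120824547. It was at 367, 352, 349 and 460 CPM in FC1 to FC4 and at 369, 340, 355 and 488 CPM in MC1 to MC4. With rapamycin it was at 308, 283, 412 and 293 CPM in FR1, FR2, FR4 and FR5, and at 338, 227, 326 and 316 CPM in MR1 to MR4. The batch 2 libraries FC4, MC4 and FR4 stood above the others, and FR4 was the only rapamycin library within the vehicle range. The log2 fold change was -0.33 (SE 0.09, adjusted p = 0.0251). Without FR2, MC4 or MR2 the adjusted p of Fasn was 0.0527, 0.0616 and 0.0543, so the call rested on each of these libraries, of which MC4 held the most choroid plexus markers, while Acly and Acaca were called in all 16 fits that each left out 1 library. In batch 1 alone the log2 fold change was -0.33 for Acly (adjusted p = 0.0484), -0.45 for Acaca (adjusted p = 0.0421) and -0.26 for Fasn (adjusted p = 0.0954).

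**Figure D2:**
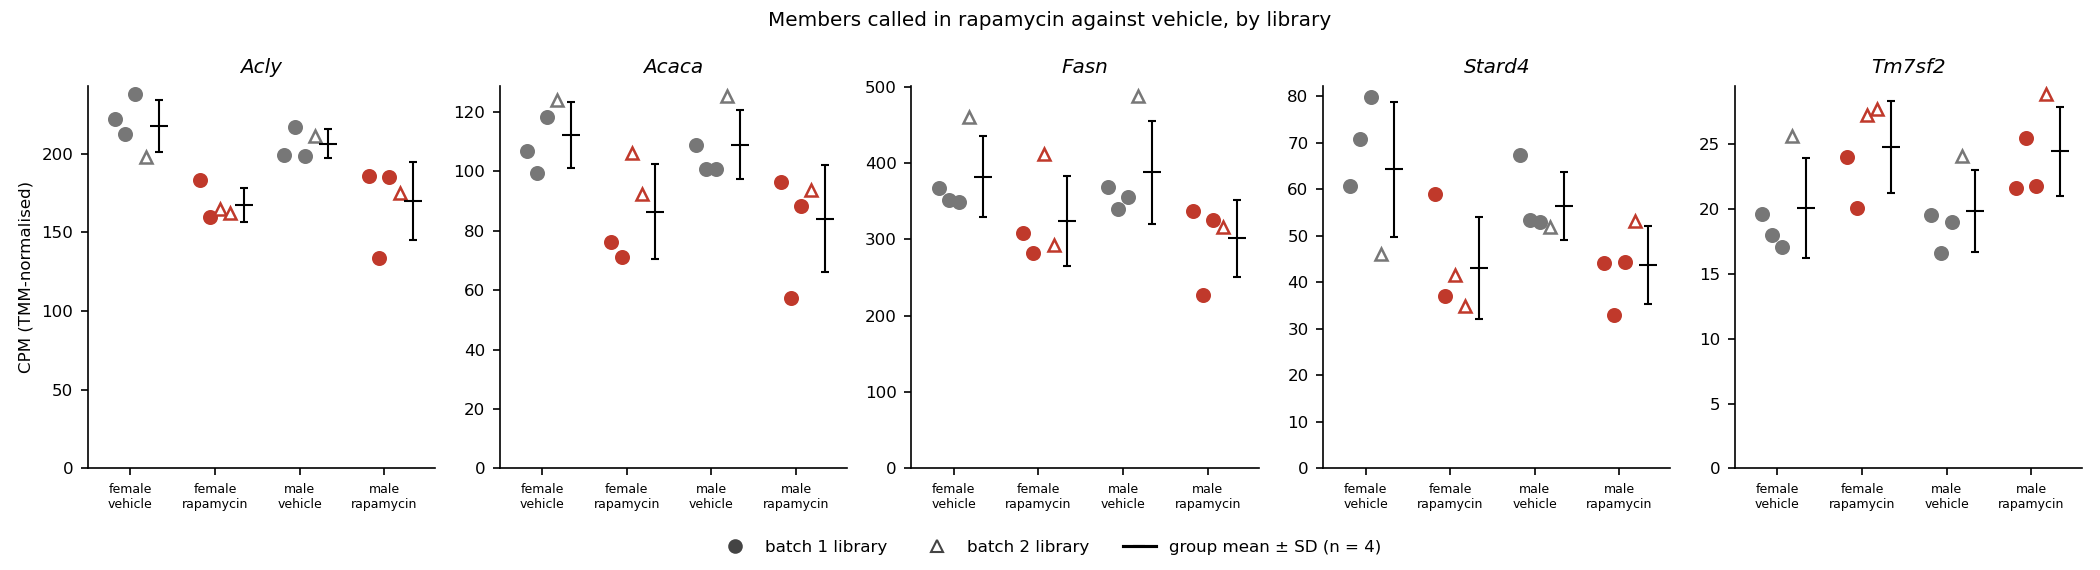
CPM of the 5 called genes (y axis, linear from 0) in each of the 16 libraries, by group (x axis), with batch 1 as filled circles, batch 2 as open triangles and the group mean with its SD (n = 4) at the side. Acly spans 134 to 186 CPM in the 8 rapamycin libraries and 198 to 238 CPM in the 8 vehicle libraries, and the other 4 genes overlap between the diets.

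Exon length moved with the same contrast. The slope of expression on exon length of a library, the change in log2 CPM per doubling of exon length relative to the mean library, ranged from 0.0004 to 0.10 in vehicle libraries and from -0.127 to 0.064 in rapamycin libraries, the lowest being FR2, MR2 and FR1. Among all tested genes with exons of 8000 bases or more, 24.1% fell and 0.638% rose, with a median log2 fold change of -0.19. Among those under 2000 bases 1.04% fell and 16.5% rose, with a median of 0.22. Acaca (17074 bases) and Fasn (10947 bases) belong to the longest class together with Lss, and Acly (5279 bases) and Stard4 (5586 bases) to the class from 4000 to 8000 bases, where 8.14% fell and the median was -0.05. The 18 mevalonate and sterol enzymes had a median exon length of 3358 bases. In the class from 2000 to 4000 bases, 2.22% of all tested genes fell and 6.91% rose, with a median of 0.07. With offsets that remove the trend with exon length in each library, 1 of the 33 genes was called, Acly, at a log2 fold change of -0.27 (adjusted p = 0.0277), and 820 genes of all tested. Acaca was then at -0.15 (adjusted p = 0.188) and Fasn at -0.14 (adjusted p = 0.199), less than the values above by a factor of more than 1.5. Mitochondrial read pairs made up 2.64% to 5.47% of vehicle and 3.75% to 6.99% of rapamycin libraries, again highest in FR1, FR2 and MR2. With either the slope or the mitochondrial share as a covariate, 0 of the 33 genes and 0 of all genes were called, with Acly at -0.16 and -0.22.

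**Figure D3:**
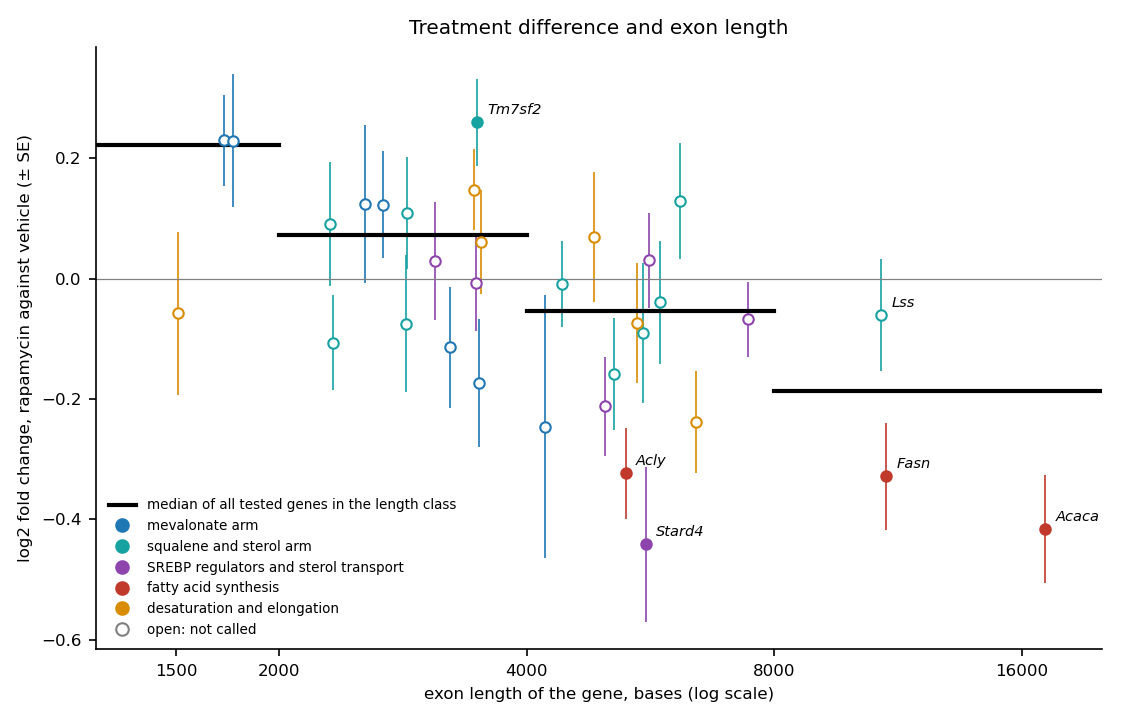
Log2 fold change with its standard error for rapamycin against vehicle (y axis) against exon length in bases (x axis, log scale) for the 33 genes, with black bars at the median of all tested genes in each of 4 length classes. The medians descend from 0.22 to -0.19 with length, Acaca and Fasn are the longest called genes, and Acly and Stard4 lie well below the median of their class.

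Of the 6 desaturases and elongases of fatty acids, 0 passed the test, and their median log2 fold change was near 0 (0.002). Elovl6, which lengthens palmitate, was at 64.1 ± 6.6 CPM with vehicle and 54.6 ± 7.2 CPM with rapamycin (SD, n = 8). Its log2 fold change was -0.24 (SE 0.08, adjusted p = 0.0684). It passed the test without FR4, the highest rapamycin library for it (adjusted p = 0.0145), and was at -0.15 with exon length offsets (adjusted p = 0.202), at 0.01 with the slope as a covariate and at -0.07 in batch 2 alone. Scd2, the main stearoyl-CoA desaturase of brain, was the most abundant of the 33 genes at 1649 ± 120 CPM with vehicle and 1588 ± 285 CPM with rapamycin, a log2 fold change of -0.07 (SE 0.10). Scd1, its paralogue, was at 202 ± 25 and 215 ± 42 CPM. Fads1 and Fads2, the desaturases of polyunsaturated fatty acids, had log2 fold changes of 0.15 (SE 0.07, adjusted p = 0.145) and -0.06 (SE 0.14). Elovl5, which lengthens polyunsaturated chains, was at 67.7 ± 7.3 and 70.7 ± 8.2 CPM.

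Among the 7 enzymes that lead from acetyl-CoA to farnesyl diphosphate, 0 passed the test. Hmgcs1, which makes the precursor of mevalonate, was at 340 ± 50 CPM with vehicle and 306 ± 64 CPM with rapamycin (SD, n = 8), a log2 fold change of -0.11 (SE 0.10). Pmvk, phosphomevalonate kinase, lay just outside the threshold at 32.97 ± 4.04 and 38.15 ± 3.61 CPM, with a log2 fold change of 0.23 (SE 0.08, adjusted p = 0.0508). Its adjusted p was 0.0430 without FC4, 0.0339 without FR4, 0.0375 without MR1 and 0.0433 without MR3, and with exon length offsets its log2 fold change was 0.06 (adjusted p = 0.594). The decarboxylase Mvd was at 0.23 (SE 0.11) and mevalonate kinase, Mvk, at 0.12 (SE 0.09) in log2 fold change. The thiolase Acat2 was at 0.12 (SE 0.13) and the isomerase Idi1 at -0.17 (SE 0.11). Fdps, farnesyl diphosphate synthase, had only 1.56 ± 0.53 CPM with vehicle. Read pairs that matched several places were left out of the counts, their part in this low level was not tested, and no change is read from it.

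Of the 11 enzymes from farnesyl diphosphate to cholesterol, 1 passed the test. Tm7sf2, a sterol reductase that acts after lanosterol demethylation (chr19:6062821-6068373), was at 19.64, 17.99, 17.03 and 25.61 CPM in FC1 to FC4 and at 19.56, 16.56, 19.02 and 24.10 CPM in MC1 to MC4. It was at 23.98, 20.07, 27.21 and 27.71 CPM in FR1, FR2, FR4 and FR5, and at 21.63, 25.43, 21.78 and 28.83 CPM in MR1 to MR4. The diets overlapped, with the batch 2 libraries highest in each group. Within batch 1 its mean was 18.3 CPM with vehicle and 22.6 CPM with rapamycin, and within batch 2 it was 24.9 and 27.9 CPM. The log2 fold change was 0.26 (SE 0.07, adjusted p = 0.0276), with adjusted p of 0.0740 without FR1, 0.0531 without MC2, 0.0563 without MC4 and 0.0673 without MR2, and 0.0623 in batch 1 alone. Exons of Tm7sf2 share 532 bases (15.3% of its exon length) with Vps51 on the same strand, and pairs that overlap several genes were not counted.

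The other 10 enzymes of this arm had log2 fold changes from -0.16 (Hsd17b7, a keto-reductase, SE 0.09) to 0.13 (the methylsterol oxidase Msmo1, SE 0.10). Squalene synthase, Fdft1, was at 0.11 (SE 0.09), squalene epoxidase, Sqle, at -0.09 (SE 0.12), and lanosterol synthase, Lss, at -0.06 (SE 0.09). Exons of Fdft1 share 767 bases (26.8% of their length) with Ctsb on the opposite strand, in counts that did not use strand. The lanosterol demethylase Cyp51 was at -0.01 (SE 0.07) and the last-step reductase Dhcr7 at -0.04 (SE 0.10). Nsdhl, which removes methyl groups with Msmo1, the isomerase Ebp and the desaturase Sc5d were at -0.07, 0.09 and -0.11 (SE 0.11, 0.10 and 0.08). A p that misses the threshold does not show that these genes were alike in the diets, and their standard errors ranged from 0.07 to 0.12.

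Of the 6 SREBP regulators and sterol carriers, 1 passed the test. Stard4, a cytosolic sterol carrier protein, was at 60.6, 70.8, 79.8 and 46.0 CPM in FC1 to FC4 and at 67.3, 53.4, 53.0 and 51.8 CPM in MC1 to MC4. It was at 58.9, 37.1, 41.6 and 34.8 CPM in FR1, FR2, FR4 and FR5, and at 44.1, 32.9, 44.4 and 53.2 CPM in MR1 to MR4. FR1 and the library labelled MR4 lay within the vehicle range, whose lowest library was FC4. The log2 fold change was -0.44 (SE 0.13, adjusted p = 0.0323), and the call was lost without FC2, FC3, FR2, FR5, MC1, MC4 or MR2, at adjusted p from 0.0566 to 0.0779. With exon length offsets it was -0.38 (adjusted p = 0.0829).

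Srebf2, which encodes the SREBP that drives sterol synthesis, was at 345 ± 14 CPM with vehicle and 301 ± 43 CPM with rapamycin (SD, n = 8), and all 8 rapamycin libraries lay below the vehicle median. The log2 fold change was -0.21 (SE 0.08, adjusted p = 0.0875), and Srebf2 passed the test without MR1 (adjusted p = 0.0491) or MR3 (adjusted p = 0.0454). Without FR2 or MR2 it was at -0.17 and -0.16 (adjusted p = 0.194 and 0.184), and with the mitochondrial share or the slope as a covariate at -0.02 and 0.01. Srebf1, which encodes the SREBP of fatty acid synthesis, was at 70.2 ± 8.5 and 74.9 ± 15.3 CPM, a log2 fold change of 0.03 (SE 0.08). Scap was at -0.07 (SE 0.06), Insig1, itself an SREBP target, at 0.03 (SE 0.10), and Insig2 at -0.01 (SE 0.08) in log2 fold change.

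Each sex was also examined separately. The male values include the library labelled MR4, whose Xist and Y-linked counts go against its label. It is the only MR library in batch 2. Without it, edgeR called 0 of the 33 genes and 0 of all genes in males. In females the fit called 0 of the 33 genes, against 0.0121% of all genes, with 6 of the 33 (18.2%, against 23.0% of all genes) at an unadjusted p under 0.05. DESeq2 called 2 of the 33 (6.06%, against 9.08% of all genes), Acaca (adjusted p = 0.0176) and Acly (adjusted p = 0.0197). In males edgeR called 0 of the 33, against 0% of all genes, with 4 of the 33 (12.1%, against 11.9% of all genes) at an unadjusted p under 0.05, and DESeq2 called 0. The log2 fold changes of the called genes in females and males were -0.37 and -0.28 for Acly, -0.46 and -0.37 for Acaca, -0.31 and -0.35 for Fasn, -0.53 and -0.36 for Stard4, and 0.21 and 0.31 for Tm7sf2. In CPM, FC and FR libraries did not overlap for Acly alone (3.03% of the 33 genes, against 5.78% of all genes), and MC and MR libraries did not overlap for Acly, Acaca and Fasn (9.09%, against 6.13%).

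The difference between the sexes in the response was tested directly, with the library labelled MR4 counted as male. Without that library the interaction called 0 of the 33 genes and 0 of all genes. With all 16 libraries it called 0 of the 33 genes in edgeR, against 0% of all genes, with 0 of the 33 at an unadjusted p under 0.05, and 0 in DESeq2. The smallest unadjusted p was 0.0753, for Scd1, which was at 185 ± 18 CPM in FC, 228 ± 51 in FR, 218 ± 20 in MC and 202 ± 32 in MR (SD, n = 4), a difference of log2 fold changes, female minus male, of 0.38 (SE 0.20). Over all genes the smallest adjusted p of the interaction in edgeR was 0.549, so its 0 calls do not show that the sexes responded alike. Between the vehicle groups, female against male, 0 of the 33 genes were called, against 0% of all genes. At an unadjusted p under 0.05 there were 0 of the 33. DESeq2 called 0 of the 33 and 9 of all genes. The edgeR test did not call Xist either, at 8678 to 17043 read pairs in FC and 1 to 17 in MC. Its 0 calls thus do not show that the vehicle groups were alike. Without the library labelled MR4 it called 6 of all genes and 0 of the 33. Apart from Fdps, the largest differences between the vehicle groups with all 16 libraries were those of Mvd at 0.28 (SE 0.16) and Scd1 at -0.24 (SE 0.14) in log2 fold change.

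Between batches 10 of the 18 mevalonate and sterol enzymes were called, a count made after the values were seen. The batch term of the same fit called 13 of the 33 genes (39.4%), against 35.4% of all genes, which itself exceeds the 13.4% called between diets. Of these, 8 were lower in batch 2 (24.2%, against 16.4% of all genes), and they were all mevalonate or sterol enzymes: Acat2, Hmgcs1, Mvd, Fdft1, Cyp51, Msmo1, Hsd17b7 and Ebp. Msmo1 had a mean of 94.4 ± 14.4 CPM in batch 1 (SD, n = 11) and 67.1 ± 8.6 CPM in batch 2 (SD, n = 5), a log2 fold change of -0.53 (SE 0.11, adjusted p = 0.00105). Acat2 was at 59.6 ± 13.8 and 41.3 ± 7.2 CPM, a log2 fold change of -0.55 (SE 0.15, adjusted p = 0.00777). The 5 genes that were higher in batch 2 (15.2%, against 19% of all genes) were Lss, Tm7sf2, Srebf1, Acaca and Fasn, with log2 fold changes from 0.28 to 0.40. Fdft1 (125 to 189 CPM in batch 1, 86.6 to 124 CPM in batch 2) and Srebf1 (55.3 to 74.3 and 79.5 to 99.1 CPM) did not overlap between batches, which makes 6.06% of the 33 genes, against 7.21% of all genes. On leaving out 1 batch 2 library, the batch count was 7 without FR4 (4286 over all genes) or MC4 (4667) and 8 without FC4 (4249). It was 11 without FR5 (5987) and 17 without the library labelled MR4 (6170), beside 13 (5854) with all libraries.

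Summed over the 18 mevalonate and sterol enzymes, FC1 to FC4 held 1233, 1151, 1311 and 946 CPM, and MC1 to MC4 held 1158, 1008, 1134 and 965 CPM. FR1, FR2, FR4 and FR5 held 1458, 972, 916 and 952 CPM, and MR1 to MR4 held 1137, 1047, 1123 and 1037 CPM. FR1 was the highest of all libraries and FR4 the lowest, so the female rapamycin group spanned the whole range of the series. FR1 exceeded FR2, of the same group and batch, for 17 of the 18 enzymes, and was the highest library for 9 of them. At Hmgcs1 it held 443 CPM, beside 255 to 265 CPM in the other FR libraries. For the sum of Acly, Acaca and Fasn the same FR1 held 568 CPM, below all 8 vehicle libraries (654 to 825 CPM), and MR2 held the least, at 419 CPM. FR1 and MR2 also had low slopes on exon length (-0.121 and -0.122). Exon length was 5279 to 17074 bases in these 3 genes, beside a median of 3358 in the 18 enzymes. The part of exon length in these sums was not tested.

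**Figure D4:**
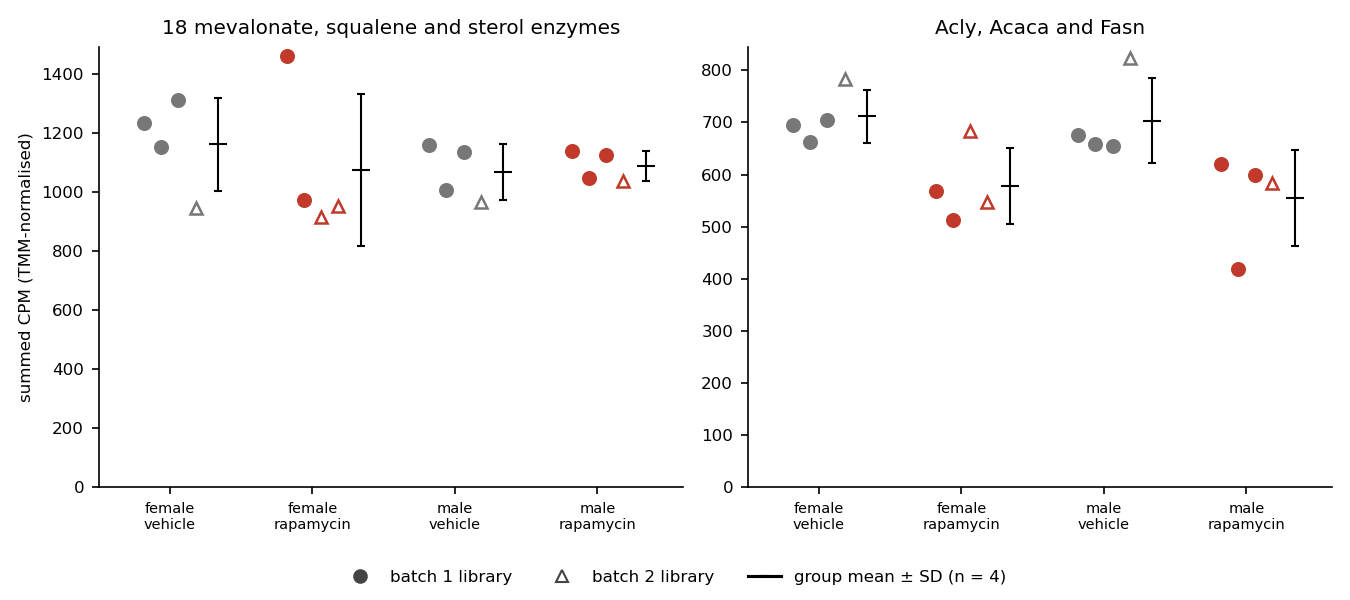
Summed CPM (y axis, linear from 0) of the 18 mevalonate, squalene and sterol enzymes on the left and of Acly, Acaca and Fasn on the right, in each of the 16 libraries by group (x axis), with batch 1 as filled circles, batch 2 as open triangles and the group mean with its SD (n = 4) at the side. FR1 stands highest on the left, at 1458 CPM, and lies below every vehicle library on the right, at 568 CPM. Its slope on exon length (-0.121) was among the lowest, and the genes on the right have longer exons than most on the left.

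Levels of different genes were compared per kilobase of exon, in vehicle libraries. The length used merges all annotated exons of a gene, so the order depends on the annotation as well as on expression. Scd2 led at 302 ± 22 CPM per kilobase (SD, n = 8), followed by Hmgcs1 at 105 ± 16. Srebf2 (69.1 ± 2.9), Fads2 (65.8 ± 6.5) and Fads1 (61.8 ± 5.3) came next, each closer to its neighbour in this order than the larger of their SDs. The same held for Fdft1 (45.7 ± 7.6), Scd1 (41.7 ± 5.1), Acly (40.1 ± 2.6) and Fasn (35.2 ± 5.1), which followed. Acaca, which stands between Acly and Fasn in the pathway, held 6.48 ± 0.62 CPM per kilobase. Apart from Fdps (0.371 ± 0.126), the lowest was Lss at 3.65 ± 0.71.

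A wider list of 44 genes of sterol and fatty acid handling, none of them among the 33, held 3 that fell (6.82%, against 6.86% of all genes) and 1 that rose in the fit of both sexes. The 4 called make 9.09% of the list, against 13.4% of all genes, and their values are given as a description. Mbtps2, the intramembrane protease that releases SREBPs in the Golgi, was at 35.0 ± 6.0 CPM with vehicle and 28.3 ± 2.7 CPM with rapamycin (SD, n = 8), a log2 fold change of -0.27 (SE 0.08, adjusted p = 0.0407). Osbp, an oxysterol-binding lipid exchange protein, was at 78.8 ± 6.3 and 66.6 ± 5.5 CPM, a log2 fold change of -0.24 (SE 0.07, adjusted p = 0.0310). Prkaa2, a catalytic subunit of the AMP-activated kinase, which phosphorylates and inhibits acetyl-CoA carboxylase, was at 55.7 ± 6.7 and 42.1 ± 5.6 CPM, a log2 fold change of -0.41 (SE 0.09, adjusted p = 0.0145). Mcat, the malonyl transferase of mitochondrial fatty acid synthesis, was at 18.8 ± 2.8 and 21.8 ± 2.4 CPM, a log2 fold change of 0.27 (SE 0.08, adjusted p = 0.0352). The exon length of the 3 that fell was 10105 bases for Mbtps2, 7969 for Prkaa2 and 4578 for Osbp, and that of Mcat was 1893.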

How the data were processed

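Cortical poly(A) RNA of 16 libraries was sequenced as paired reads. The authors deposited raw counts of read pairs per gene, not normalized, and again in 1 table per group (0 of 761488 cells differed). Per the study's methods and submitters' notes, reads were checked with FastQC 0.11.9, trimmed with Trimmomatic 0.39 (Trim Galore is also named), aligned to GRCm38 (mm10) with HISAT2 2.2.1 and counted by featureCounts 2.0.3, without strand and without read pairs that match several places or genes. Genes with near-identical copies can thus be undercounted, and levels follow RNA integrity and library composition as well as expression. The study's text describes 6 pooled samples per condition, whereas its figure legends give 4 mice per group and the labels 4 libraries per group, which were used.

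Counts were tested with edgeR 4.0.16 in R 4.3.3: filterByExpr with a minimum count of 10 (16553 genes, 99.9% of read pairs), TMM factors and the quasi-likelihood test; terms were sex, batch and diet for both sexes, and the 4 groups and batch for the rest. Standard errors are the log2 fold change divided by the square root of the F statistic. Adjusted p values are Benjamini-Hochberg values over all genes tested, and a gene was called under 0.05. The biological coefficient of variation was 0.186. CPM values use TMM factors, and log2 CPM values for the exon length slopes have a prior count of 2. Exon length is the merged exon length of the count table. Alternatives were DESeq2 1.42.0, RLE factors, no filter, other terms, exon length offsets (a lowess curve of span 0.3) and leaving out each library; those for the batch term were chosen after seeing the data. Tables and figures were made with Python 3.11.15, NumPy 2.4.6, pandas 2.3.3 and matplotlib 3.10.9. All 33 genes were named, and of the 44 wider genes those called; the Fasn and Tm7sf2 promoters were added after their values were seen. The genes and lists were chosen with earlier results of these data known.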

Additional observations from a re-analysis of the deposited data

Results flagged for a closer look

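Each gene was examined in each group of 4 libraries for a library whose gap to its nearest neighbour exceeded the 95% critical value of Dixon's ratio for 4 samples. Chance marks about 1 in 20 groups, or 6.6 of the 132 examined, and 13 were marked. Of these 3 were in FR1 and 3 in FR4. FR1 was high for Hmgcs1 at 443 CPM (others 255 to 265), for Msmo1 at 122 CPM (others 70.5 to 75.4) and for Mvk at 30.0 CPM (others 25.6 to 26.3). FR4, of batch 2, was high for Scd2 at 2107 CPM (others 1408 to 1461), for Elovl6 at 64.9 CPM (others 46.1 to 48.0) and for Fdps at 1.71 CPM (others 1.41 to 1.44).

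FC4, of batch 2, was high for Fasn at 460 CPM (others 349 to 367) and for Srebf2 at 364 CPM (others 329 to 332), while FC1 was low for Scd2 at 1483 CPM (others 1630 to 1633). MC4, of batch 2, was low for Cyp51 at 61.7 CPM (others 84.7 to 87.9), and MC1 was high for Stard4 at 67.3 CPM (others 51.8 to 53.4). MR1 was high for Mvk at 29.4 CPM (others 26.2 to 26.3), and MR2 was low for Elovl6 at 51.0 CPM (others 59.4 to 60.1). No difference between the sexes in the response of the 33 genes met the threshold, and none did among all genes tested.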

How the results depend on the processing

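The 5 calls in both sexes (2220 over all genes) were 5 with RLE factors (2251) and 4 without the low-count filter (2041), where Tm7sf2 was lost (adjusted p = 0.0922). They were 8 with DESeq2 (3131 over all genes), which added Pmvk, Srebf2 and Elovl6, 3 with DESeq2 and treatment as the only term (1133), 0 without the batch term (145), 3 in batch 1 alone (1279), 0 in batch 2 alone (3), 1 with exon length offsets (820), 0 with either library covariate (mitochondrial share, or slope on exon length) (0 over all genes) and 0 with a fold change of at least 1.5 required (354). Leaving out 1 library gave 2 to 7 calls, beside counts over all genes that changed as well. There were 2 without MC4 (1262 over all genes) or MR2 (1010) and 3 without FR2 (891). There were 7 without FR4 (3360), MR1 (2611) or MR3 (2932). Without the library labelled MR4 they were 5 (1659). Equal replicate numbers are tied by the labels to no shared litter or day, and were not taken as pairs in the main fit. Deviations from group means correlated at over 0.1 in 18 of 21 such pairs (range -0.157 to 0.675). Number 4 coincides with batch 2, and libraries of unequal number were not compared, so these values cannot tell pairing from a shared batch. With the replicate block in place of batch there were 3 calls (1327 over all genes), Acly, Acaca and Fasn, without Stard4 (adjusted p = 0.0551) and Tm7sf2 (adjusted p = 0.0511). In females the 0 calls (2 over all genes) were 2 with DESeq2 (1503), 2 without the filter (Acaca and Stard4; 1678), and 0 to 2 on leaving out 1 library: 2 without FR4 (Acaca and Elovl6; 2130) or MR2 (Acaca and Acly; 535). In males, in the interaction and between vehicle groups the count stayed at 0 in each alternative run. The batch count of 13 (5854 over all genes) was 5 with the slope as a covariate (Msmo1, Hsd17b7, Cyp51, Srebf1 and Tm7sf2; 2107). It was 3 with the mitochondrial share (Msmo1, Srebf1 and Tm7sf2; 1739), 9 with offsets (5477), and 7 to 17 on leaving out 1 library (4249 to 6170). The median log2 fold change of the 33 genes was 0.095 in batch 2 alone, and 0.01 with the slope as a covariate. The causes were not tested. The 5 called genes kept their direction in all 27 other fits. Depth limits Fdps, at 14 to 40 read pairs per library.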
